A study of Mus musculus with 8 samples.

Results

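Conjugating enzymes attach a polar group to drugs, hormones, bile pigments and reactive lipids, which makes these molecules less reactive and easier to export. Glutathione transferases, UDP-glucuronosyltransferases and sulfotransferases are the main such families of the gut lining and liver, and were described here across 3 segments of the mouse gut. Members were all rows of the deposited expression table whose symbol belongs to the Gst classes alpha, mu, pi, theta, omega, kappa and zeta, to Mgst, to Ugt1, Ugt2 or Ugt3, or to Sult. This gave 48 of 18131 rows, of which 23 were glutathione transferases, 15 were UDP-glucuronosyltransferases and 10 were sulfotransferases. All 48 carried a current mouse symbol. The rule used names alone and no measured value, although it was chosen with earlier results of these data known.

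Cells positive for GFP were sorted from adult Ngn3-GFP mice and their RNA was hybridised to Illumina bead arrays. The gastric group (3 arrays) came from the pyloric stomach, the duodenal group (3 arrays) from the duodenum and the colonic group (2 arrays) from the colon. All 3 groups carry the same reporter, whose GFP follows Neurog3, the transcription factor of endocrine progenitors, and no treatment is named for any of them. The labels call the sorted cells enteroendocrine cells. Stomach was dissociated with EDTA and Accutase, and duodenum and colon with a shorter EDTA step and dispase. Whether each array stands for its own animal is not stated in the labels. The p-values therefore describe only the scatter among these 8 arrays, and that scatter may be technical.

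Values are on a log2 scale, so a difference of 1 is 2-fold. As a background reference, the 1075 olfactory receptor rows had a 95th percentile of 6.81, and a mean under it is called at background. A low value can also come from a poor probe and is no proof that the RNA was missing. Values of members were compared between segments within a row and not between rows. For cell type markers, rows were also summed, and the share of 1 gene in such a sum depends on its probe as well. A row is called where its limma p, adjusted by Benjamini-Hochberg across the 18131 rows, was under 0.05. Of the 48 members, 35 (72.9%) had a mean above background in at least 1 segment, against 60.7% of all rows. By family these were 22 of 23 glutathione transferases, 7 of 15 UDP-glucuronosyltransferases and 6 of 10 sulfotransferases.

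The sorted cells differed between segments in more than these enzymes. Neurog3 averaged 13.03 ± 0.073 in gastric and 9.74 ± 0.027 in duodenal cells (SD, n = 3 each) and 8.73 ± 0.046 in colonic cells (SD, n = 2). All 14 measured enteroendocrine markers were higher in gastric than duodenal cells, and their summed linear signal was 61079 to 63334 in gastric, 10645 to 11217 in duodenal and 3547 to 3647 in colonic arrays. Of these markers, Pax6 was at background in every segment, and Pcsk1 and Pcsk2 were at background in colonic arrays only. Markers of absorptive cells were present too. The 10 measured enterocyte markers summed to 4555 to 4647 in gastric, 43594 to 44128 in duodenal and 2776 to 2838 in colonic arrays, although Fabp1 and Fabp2 were at background throughout, Mme also in gastric and colonic arrays, and Apoa4 and Apoc3 in colonic arrays. In these bulk samples, fewer cells of a type and less RNA per cell cannot be told apart.

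Conjugating enzymes were more often lower than higher in gastric against duodenal cells, and more often higher than lower in duodenal against colonic cells. Against duodenal cells, 25 of the 48 members were lower in gastric cells (52.1%, against 23.9% of all rows), 9 were higher (18.8%, against 22.7%) and 14 were not called. The median log2 difference was -0.15 over the members and -0.01 over all rows. Against colonic cells, 18 members were lower in gastric cells (37.5%, against 23.9% of all rows) and 14 were higher (29.2%, against 20.2%). Between the intestinal segments, 22 members were higher in duodenal than colonic cells (45.8%, against 16.0% of all rows) and 8 were lower (16.7%, against 18.2%). These 3 comparisons share their arrays and are not independent of each other. In either direction, 34 members (70.8%, against 46.6% of all rows) were called in gastric against duodenal cells, 32 (66.7%, against 44.1%) in gastric against colonic cells and 30 (62.5%, against 34.2%) in duodenal against colonic cells.

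**Figure D1:**
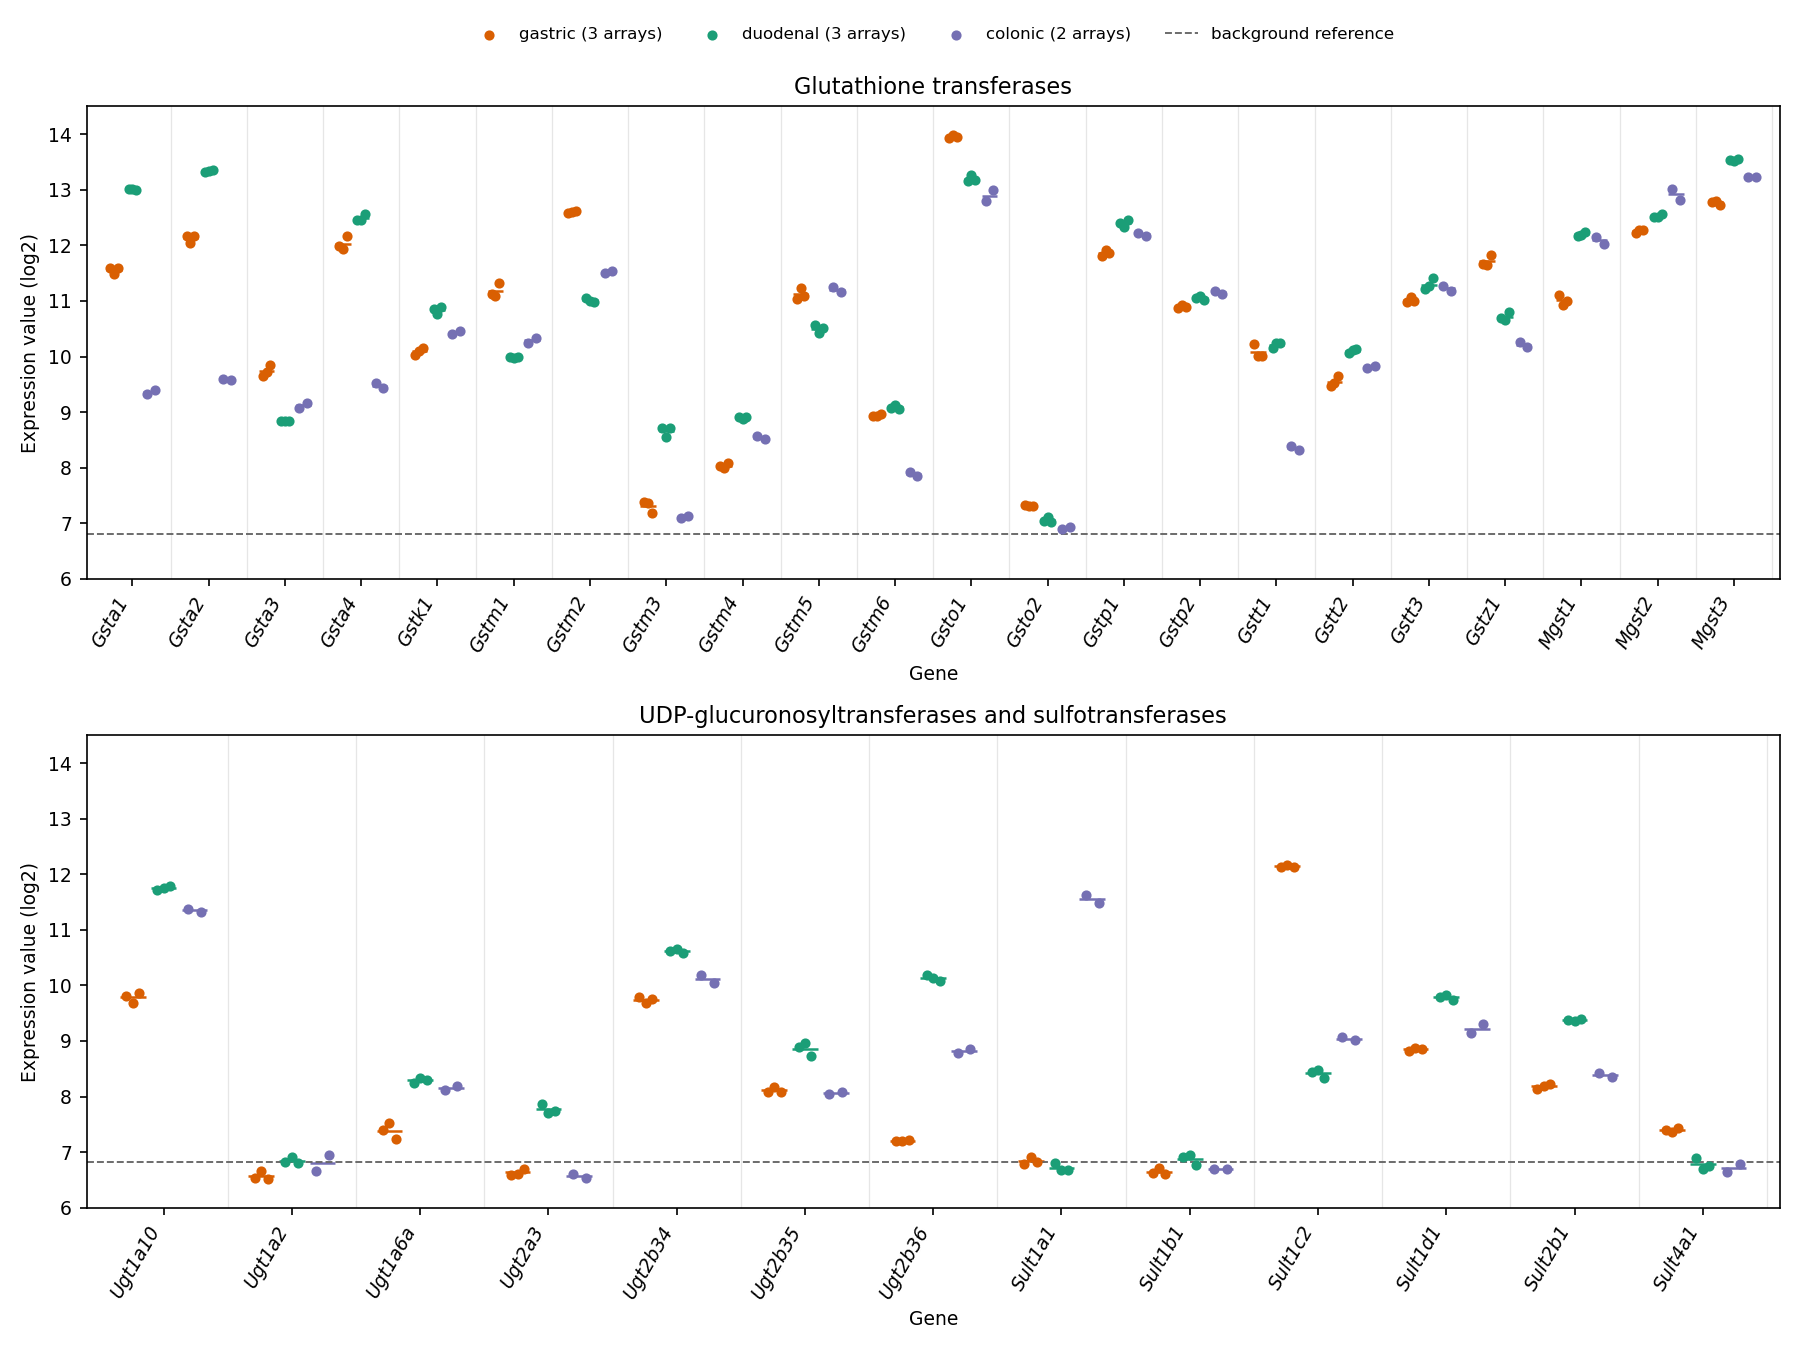
Expression values (log2, vertical axis) of the 35 members above background in at least 1 segment, with 1 point per array, a short line at each segment's mean and a dashed line at the background reference of 6.81. Arrays of a segment lie close together, Gsta1, Gsta2 and Gsta4 are low in colonic cells, Sult1a1 stands above background in colonic cells, and Sult1c2 is highest in gastric cells.

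Changes of at least 2-fold were fewer. Gastric against duodenal cells had 11 such members, 3 higher and 8 lower, where 7.77% of all rows were called at that size, 4.07% higher and 3.7% lower. Gastric against colonic cells had 13, with 9 higher and 4 lower, against 7.41% of all rows, 4.03% higher and 3.39% lower. Duodenal against colonic cells had 9, with 8 higher and 1 lower, against 3.56% of all rows, 2.02% higher and 1.54% lower.

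The glutathione transferases join the thiol of glutathione to electrophiles. Of the 23 rows, 22 were above background in all 3 segments, and Gstt4 was at background in all of them. Gastric cells had lower levels than duodenal cells for 14 rows (60.9%, against 23.9% of all rows) and higher levels for 7 (30.4%, against 22.7%), and 2 were not called. Against colonic cells, gastric cells were higher for 12 (52.2%, against 20.2% of all rows) and lower for 9 (39.1%, against 23.9%). Duodenal cells were higher than colonic cells for 14 (60.9%, against 16.0% of all rows) and lower for 5 (21.7%, against 18.2%). The shares higher in gastric than duodenal cells and lower in duodenal than colonic cells thus lay near those of all rows. The family's median log2 differences were -0.27, 0.20 and 0.29 in these comparisons.

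The alpha class held the largest differences of the family in both comparisons with colonic cells. Gsta1, a cytosolic enzyme of broad range, read 11.60, 11.48 and 11.59 in gastric arrays, 13.02, 13.02 and 12.99 in duodenal arrays, and 9.33 and 9.41 in colonic arrays. Its close relative Gsta2 read 12.17, 12.05 and 12.17 in gastric arrays, 13.32, 13.33 and 13.36 in duodenal arrays, and 9.59 and 9.58 in colonic arrays. Neither gene had overlapping groups, and both were highest in the duodenum and lowest in the colon. Gsta1 was 2.74-fold lower in gastric than duodenal cells (log2 difference -1.46, SE 0.049, adjusted p = 1.68e-12) and 12.5-fold higher in duodenal than colonic cells (adjusted p = 4.68e-16). Gsta2 was 2.3-fold lower and 13.5-fold higher in the same comparisons (adjusted p = 1.37e-11 and 3.02e-16). Gastric cells also stood 4.55-fold and 5.85-fold above colonic cells for Gsta1 and Gsta2. The probes of near-identical genes may detect each other's transcripts, so both rows cannot be taken as separate measurements; the same holds for the Gstp, Gstm and Ugt2b genes.

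Gsta4, which detoxifies the lipid peroxidation product 4-hydroxynonenal, kept a high level in the stomach. It read 11.99, 11.94 and 12.17 in gastric arrays, 12.45, 12.46 and 12.56 in duodenal arrays, and 9.52 and 9.43 in colonic arrays. Gastric cells were 1.37-fold below duodenal cells (adjusted p = 1.21e-05) and 5.88-fold above colonic cells (adjusted p = 1.26e-13), and duodenal cells were 8.07-fold above colonic cells. In RefSeq, Gsta4, Gsta1 and Gsta2 follow each other among the members on chromosome 9. Gsta3, which in mouse inactivates the aflatoxin epoxide, lies on chromosome 1 and had another order. It averaged 9.74 ± 0.096 in gastric cells, 8.84 ± 0.006 in duodenal cells (SD, n = 3 each) and 9.12 ± 0.068 in colonic cells (SD, n = 2). Gsta3 was thus 1.87-fold higher in gastric than duodenal cells (adjusted p = 1.59e-09).

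The promoters of Gsta1 and Gsta2 are shown because both rows had the same profile. The bases are the 250 before each RefSeq start, 5′ to 3′ on the gene's strand, from GRCm38.p6, and capitals mark the dioxin response element core GCGTG. The windows are chr9:78230419-78230668 on the plus strand for Gsta1 and chr9:78347146-78347395 on the minus strand for Gsta2. They shared 184 of 239 aligned bases (77%).
Gsta1: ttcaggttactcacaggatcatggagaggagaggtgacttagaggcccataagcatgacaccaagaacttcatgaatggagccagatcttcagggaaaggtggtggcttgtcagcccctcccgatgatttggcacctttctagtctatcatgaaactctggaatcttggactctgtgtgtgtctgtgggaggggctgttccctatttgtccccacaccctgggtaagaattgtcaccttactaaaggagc
Gsta2: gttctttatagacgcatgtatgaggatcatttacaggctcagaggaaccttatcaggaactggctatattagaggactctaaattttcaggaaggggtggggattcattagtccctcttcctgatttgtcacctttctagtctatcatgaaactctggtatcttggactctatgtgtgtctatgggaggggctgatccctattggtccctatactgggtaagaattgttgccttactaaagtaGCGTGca
Only the Gsta2 window held GCGTG, beginning at base -7 from the start. On either strand, 28.2% of all 32851 RefSeq windows of this length and 16.7% of the 54 member windows held it. The member windows belonged to 44 of the 48 genes. A match is a description of letters and not a binding site.

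The mu class split in both directions. Gstm2 read 12.58, 12.61 and 12.62 in gastric arrays, 11.05, 11.01 and 10.97 in duodenal arrays, and 11.51 and 11.55 in colonic arrays. Gastric cells were therefore above both other segments, by 3.01-fold over duodenal (adjusted p = 2.3e-13) and 2.1-fold over colonic cells (adjusted p = 1.09e-10). Gstm1 followed the same order, at 11.18 ± 0.125 in gastric, 9.99 ± 0.014 in duodenal (SD, n = 3 each) and 10.29 ± 0.065 in colonic cells (SD, n = 2). Gstm3 ran the other way. It read 7.39, 7.36 and 7.19 in gastric arrays, 8.71, 8.55 and 8.71 in duodenal arrays, and 7.09 and 7.13 in colonic arrays. This made Gstm3 2.54-fold lower in gastric than duodenal cells (adjusted p = 6.7e-11) and 2.92-fold higher in duodenal than colonic cells, with gastric and colonic levels nearer to background. Its gastric against colonic call (1.15-fold higher, adjusted p = 0.0278) was lost without gastric replicate 1 or 2 or either colonic replicate.

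Other mu genes filled in this range. Gstm4 was 1.82-fold lower in gastric than duodenal cells (adjusted p = 4.16e-10) and Gstm5 was 1.54-fold higher (adjusted p = 2.71e-07). Gstm5 was 1.63-fold lower in duodenal than colonic cells, while gastric and colonic arrays overlapped and were not called different (log2 difference -0.08, 95% interval -0.22 to 0.06). Gstm6 was 2.06-fold higher in gastric than colonic cells and 2.29-fold higher in duodenal than colonic cells. The 6 genes are neighbours on 1 chromosome in RefSeq, in the order Gstm5, Gstm6, Gstm3, Gstm2, Gstm1 and Gstm4. Along this order the segment with the highest mean was colonic, duodenal, duodenal, gastric, gastric and duodenal, so adjacent genes did not share a single profile.

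**Figure D2:**
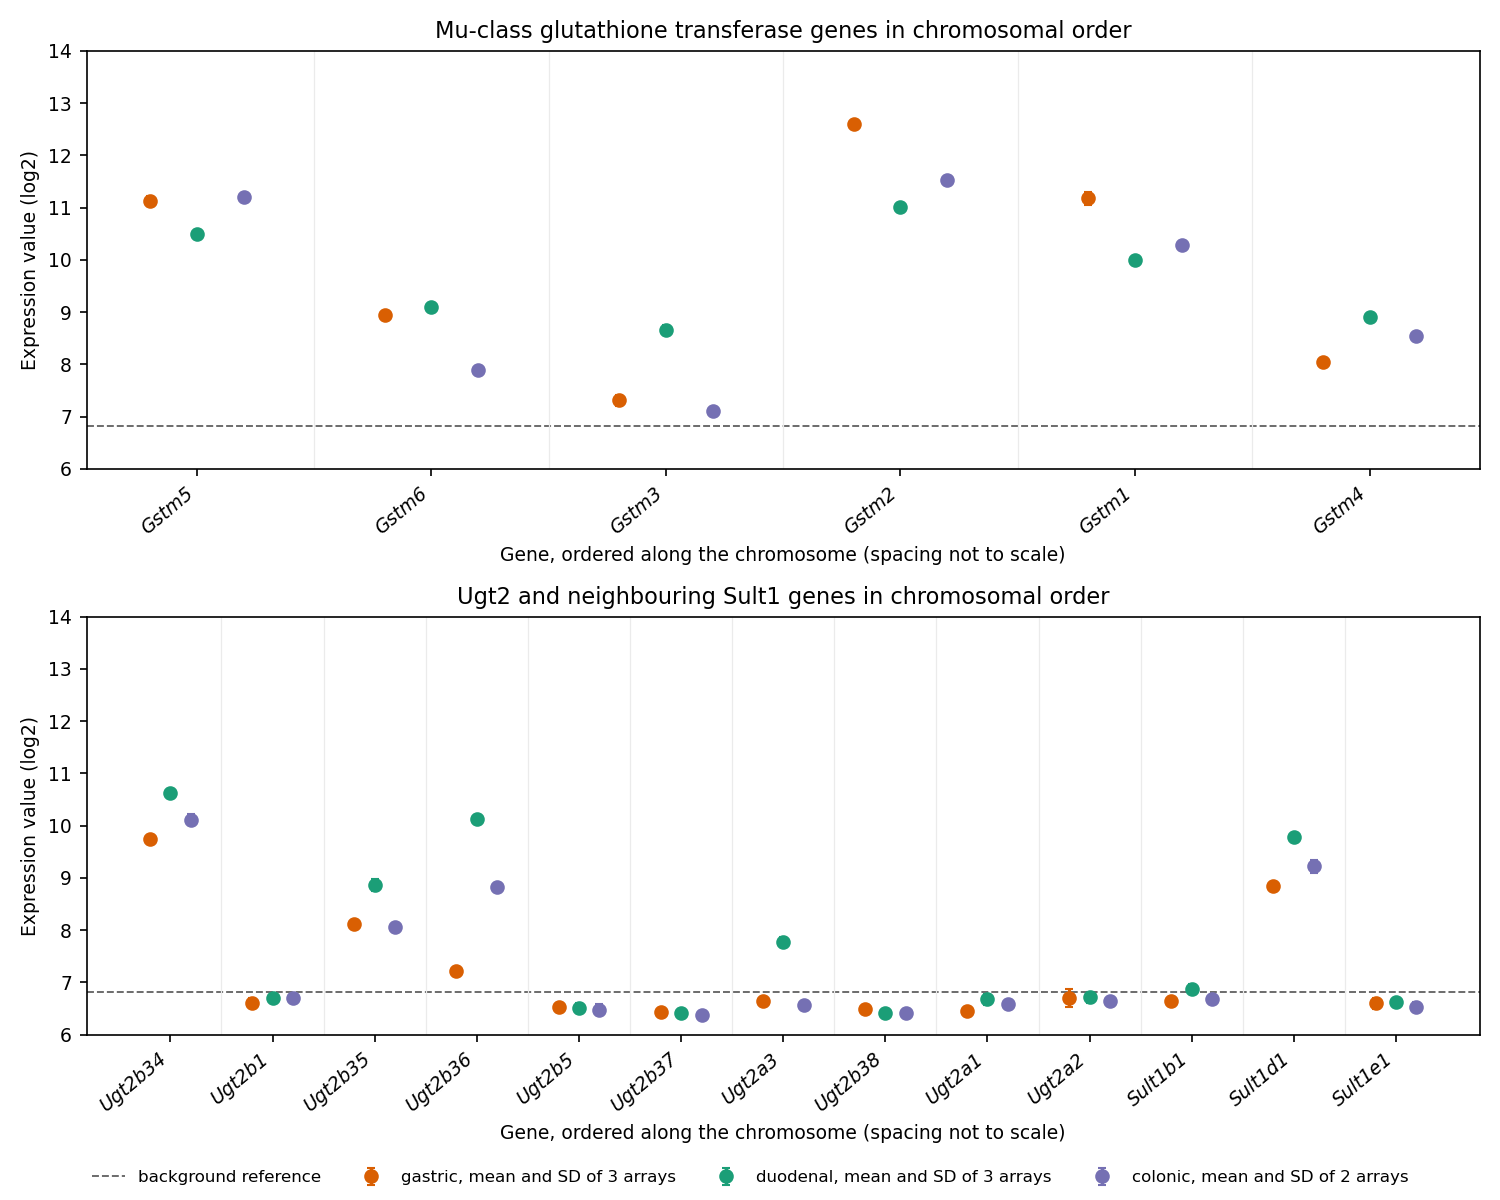
Mean expression value (log2, vertical axis) with SD for mu-class genes (top) and for Ugt2 and neighbouring Sult1 genes (bottom), in their order along the chromosome, with the background reference dashed. Gstm2 and Gstm1 are highest in gastric cells while Gstm6, Gstm3 and Gstm4 are highest in duodenal cells, and the Ugt2 genes above background are all highest in duodenal cells.

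Among the remaining soluble classes, zeta and omega genes were highest in the stomach. Gstz1, the maleylacetoacetate isomerase of tyrosine breakdown, read 11.67, 11.65 and 11.83 in gastric arrays, 10.70, 10.66 and 10.80 in duodenal arrays, and 10.26 and 10.18 in colonic arrays. The 3 segments did not overlap and fell in that order, with gastric cells 2-fold above duodenal (adjusted p = 1.18e-09) and 2.82-fold above colonic cells (adjusted p = 4.41e-11). Gsto1, a dehydroascorbate reductase, averaged 13.95 ± 0.025 in gastric, 13.20 ± 0.058 in duodenal (SD, n = 3 each) and 12.89 ± 0.143 in colonic cells (SD, n = 2). Gsto2, its relative, followed the same order closer to background, and its duodenal against colonic call (adjusted p = 0.038) was lost without any of 5 single arrays. The kappa gene Gstk1, of mitochondria and peroxisomes, was instead 1.67-fold lower in gastric than duodenal cells (adjusted p = 7.97e-09).

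In the theta class, Gstt1 separated the colon from the rest. It read 10.22, 10.02 and 10.01 in gastric arrays, 10.15, 10.24 and 10.25 in duodenal arrays, and 8.38 and 8.32 in colonic arrays. Gastric and duodenal arrays overlapped and were not called different (log2 difference -0.13, adjusted p = 0.0955). Gastric cells were 3.32-fold above colonic cells (adjusted p = 1.1e-11), and duodenal cells were 3.63-fold above them (adjusted p = 1.08e-11). The related Gstt3 was 1.22-fold lower in gastric than duodenal cells and was not called between duodenal and colonic cells (log2 difference 0.07, 95% interval -0.07 to 0.21). Gstt2 was 1.47-fold lower in gastric than duodenal cells. The pi genes moved little, with Gstp1 1.45-fold and Gstp2 1.11-fold lower in gastric than duodenal cells. The Gstp2 call, like that of Gstm6 (1.11-fold lower), was lost without duodenal replicate 2. The duodenal against colonic call of Gstp1 (1.15-fold higher, adjusted p = 0.0111) was lost without colonic replicate 2, and the gastric against colonic call of Gstt3 (1.16-fold lower, adjusted p = 0.0115) without colonic replicate 1.

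The membrane-bound enzymes were all lower in gastric than in intestinal cells. Mgst1, which protects microsomal and outer mitochondrial membranes, read 11.11, 10.92 and 11.00 in gastric arrays, 12.17, 12.18 and 12.25 in duodenal arrays, and 12.16 and 12.02 in colonic arrays. Gastric cells were 2.28-fold below duodenal (adjusted p = 1.13e-10) and 2.11-fold below colonic cells (adjusted p = 1.69e-09), and duodenal and colonic cells were not called different (log2 difference 0.11, 95% interval -0.03 to 0.25). Mgst2, which can make leukotriene C4, averaged 12.26 ± 0.033 in gastric, 12.53 ± 0.032 in duodenal (SD, n = 3 each) and 12.92 ± 0.138 in colonic cells (SD, n = 2), and was 1.58-fold lower in gastric than colonic cells. Mgst3 was 1.69-fold lower in gastric than duodenal cells and 1.37-fold lower than in colonic cells (adjusted p = 1.23e-09 and 1.83e-06).

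**Figure D3:**
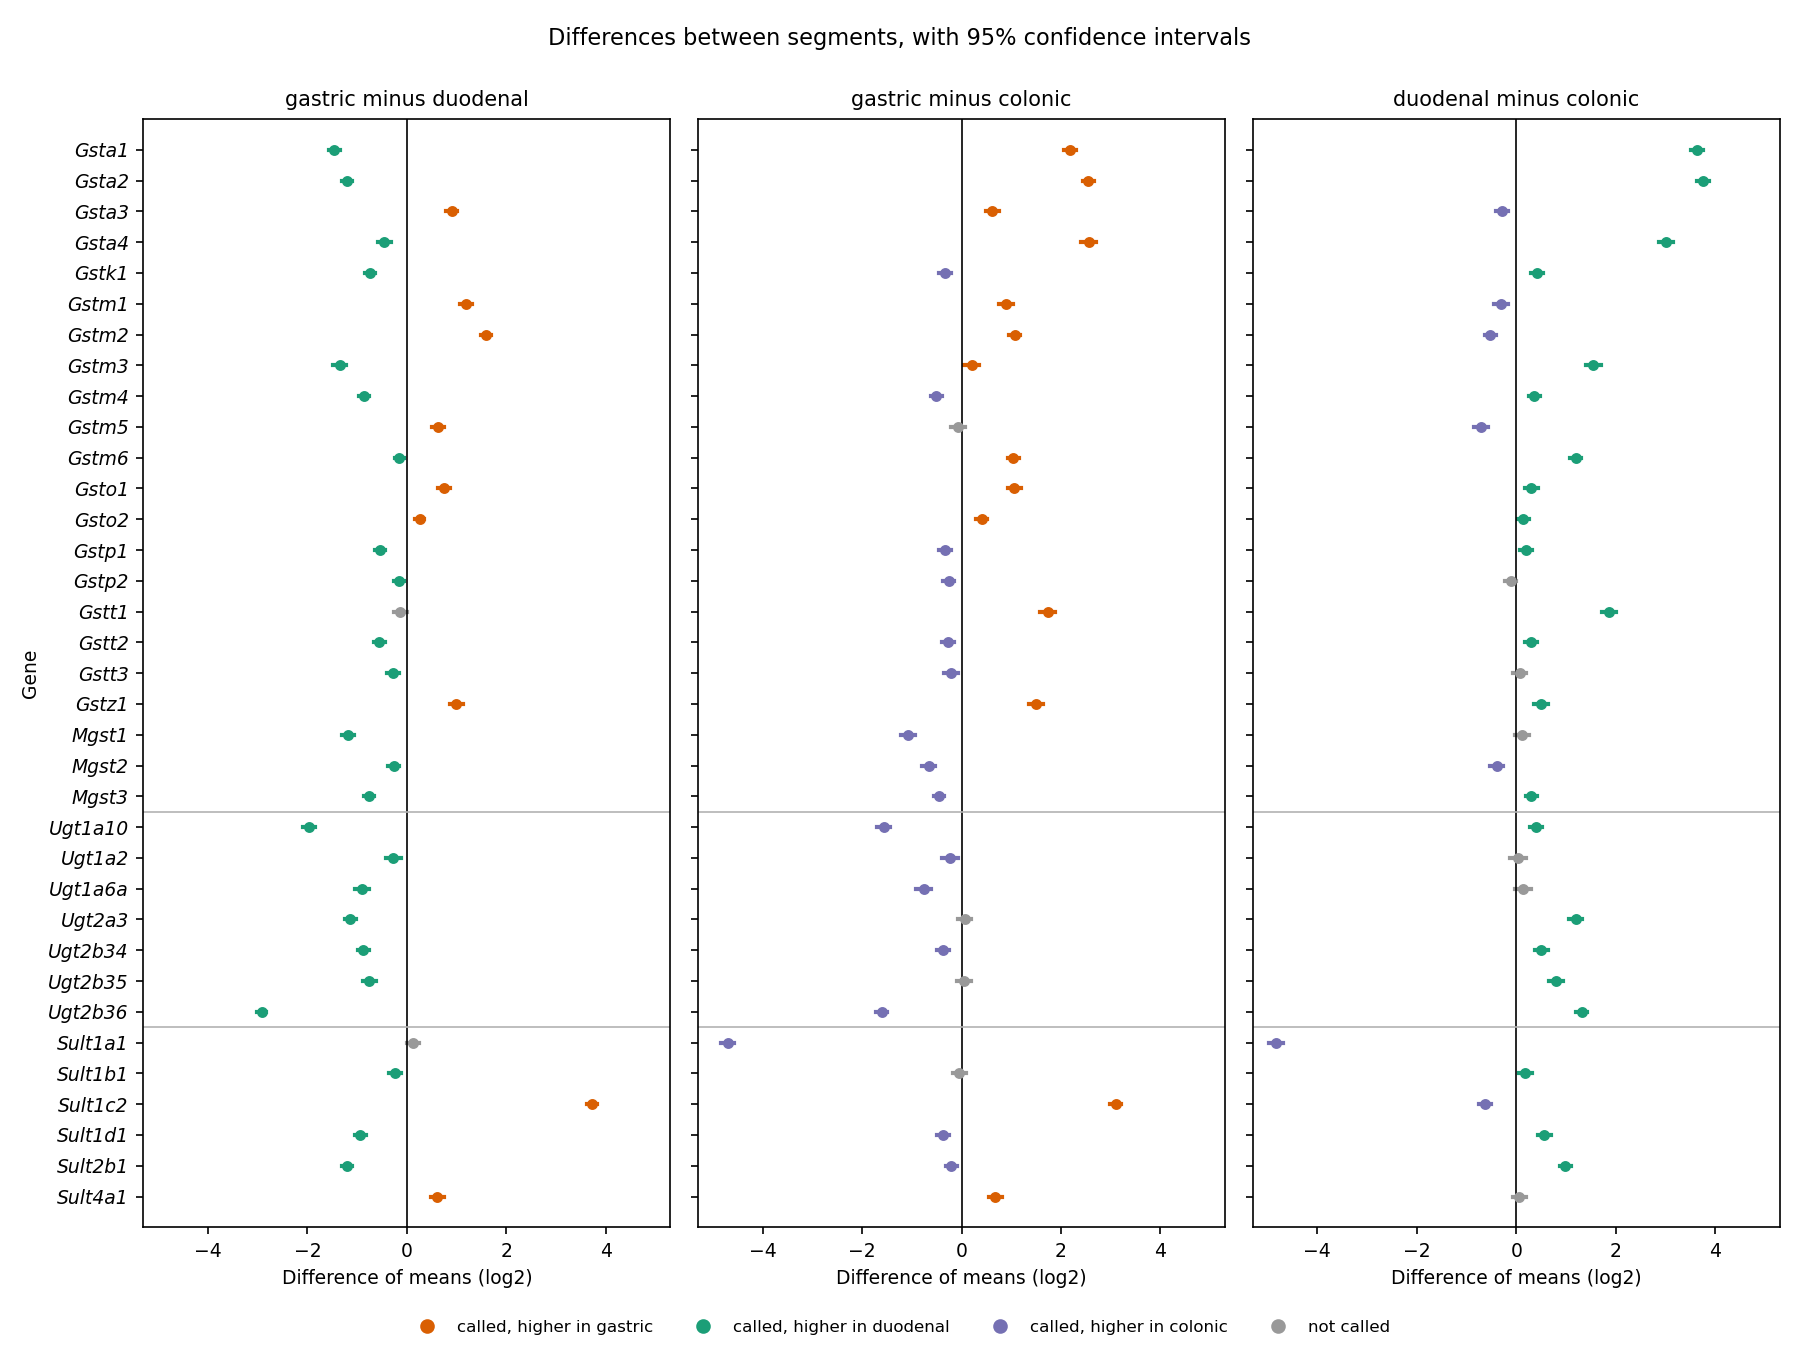
Log2 differences between segment means (horizontal axis) with 95% confidence intervals for the 35 members above background in at least 1 segment, in 3 panels, 1 per comparison. Colours give the segment with the higher level where the row was called and grey marks rows not called. UDP-glucuronosyltransferases lie left of 0 in the gastric minus duodenal panel, and Sult1a1 and Sult1c2 have the largest differences of the gastric minus colonic panel.

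UDP-glucuronosyltransferases sit in the endoplasmic reticulum and transfer glucuronic acid to bilirubin, steroids, phenols and drugs. None of the 15 rows was called higher in gastric cells against either intestinal segment. Against duodenal cells, gastric cells were lower for 8 rows (53.3%, against 23.9% of all rows) and 7 were not called. Against colonic cells, gastric cells were lower for 5 rows (33.3%, near the 23.9% of all rows) and 10 were not called. Duodenal cells were higher than colonic cells for 5 rows (33.3%, against 16.0% of all rows) and lower for none. At an unadjusted limma p under 0.05 there were likewise 0 rows higher in gastric than duodenal cells, 0 higher in gastric than colonic cells and 0 lower in duodenal than colonic cells. Ugt2a1, Ugt2a2, Ugt2b1, Ugt2b5, Ugt2b37, Ugt2b38, Ugt3a1 and Ugt3a2 were at background in all segments, and of these Ugt2a1 was among the 8 called lower in gastric than duodenal cells.

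Ugt2b36 had the largest difference of the family. It read 7.21, 7.20 and 7.22 in gastric arrays, 10.18, 10.13 and 10.08 in duodenal arrays, and 8.78 and 8.85 in colonic arrays. The groups did not overlap, and the order was duodenal, colonic and gastric. Gastric cells were 7.58-fold below duodenal (log2 difference -2.92, SE 0.046, adjusted p = 3.88e-16) and 3.05-fold below colonic cells (adjusted p = 1.33e-12), and duodenal cells were 2.49-fold above colonic cells (adjusted p = 3.14e-11). Ugt2b34 and Ugt2b35 leaned the same way with smaller sizes. Gastric cells were 1.84-fold below duodenal cells for Ugt2b34 (adjusted p = 1.41e-09) and 1.68-fold below them for Ugt2b35 (adjusted p = 3.89e-08). Ugt2b35 was not called between gastric and colonic cells (log2 difference 0.04, 95% interval -0.10 to 0.18).

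Ugt2a3 was above background in duodenal cells alone. It read 6.59, 6.61 and 6.71 in gastric arrays, 7.87, 7.70 and 7.74 in duodenal arrays, and 6.61 and 6.53 in colonic arrays. Because both other groups were at background, its level was at least 1.94-fold lower in gastric than duodenal cells (adjusted p = 1.29e-10) and at least 1.94-fold higher in duodenal than colonic cells (adjusted p = 6.41e-10). The 10 Ugt2 genes measured follow each other among the members on 1 chromosome in RefSeq, followed by Sult1b1, Sult1d1 and Sult1e1. The 4 of them above background were not contiguous, since Ugt2b1 stands between Ugt2b34 and Ugt2b35, and Ugt2b5 and Ugt2b37 between Ugt2b36 and Ugt2a3.

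The Ugt1 genes have separate first exons joined to shared later ones, so a row can report on several of them where its probe lies in the shared part. Where the probes lie is not stated. The row UGT1A10, a symbol that RefSeq also lists as an older name of Ugt1a7c, read 9.81, 9.68 and 9.86 in gastric arrays, 11.72, 11.75 and 11.78 in duodenal arrays, and 11.38 and 11.32 in colonic arrays. Gastric cells were 3.91-fold below duodenal (adjusted p = 1.21e-13) and 2.96-fold below colonic cells (adjusted p = 7.73e-12), and duodenal cells were 1.32-fold above colonic cells. Ugt1a6a, which acts on small phenols, averaged 7.39 ± 0.149 in gastric, 8.29 ± 0.048 in duodenal (SD, n = 3 each) and 8.15 ± 0.042 in colonic cells (SD, n = 2). It was 1.87-fold lower in gastric than duodenal and 1.7-fold lower than colonic cells (adjusted p = 1.38e-08 and 4.11e-07), and the intestinal segments were not called different (log2 difference 0.14, 95% interval -0.02 to 0.30). Ugt1a2 averaged 6.57 ± 0.075 in gastric and 6.84 ± 0.064 in duodenal cells (SD, n = 3 each) and 6.81 ± 0.205 in colonic cells (SD, n = 2), all at or next to background. It was called lower in gastric than in both intestinal segments, and the colonic call was lost without gastric replicate 1 or 3 or colonic replicate 2.

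The promoters of 4 Ugt genes called lower in gastric than duodenal cells are shown to compare their letters near the start, in the same form as above. Capitals mark GTTAAT, an arm of the motif of HNF1 factors, on either strand. HNF1 factors are known activators of liver and intestinal Ugt genes. The windows are chr1:88055161-88055410 (plus strand, Ugt1a10), chr1:88134559-88134808 (plus strand, Ugt1a6a), chr5:87337196-87337445 (minus strand, Ugt2a3) and chr5:87092556-87092805 (minus strand, Ugt2b36).
Ugt1a10: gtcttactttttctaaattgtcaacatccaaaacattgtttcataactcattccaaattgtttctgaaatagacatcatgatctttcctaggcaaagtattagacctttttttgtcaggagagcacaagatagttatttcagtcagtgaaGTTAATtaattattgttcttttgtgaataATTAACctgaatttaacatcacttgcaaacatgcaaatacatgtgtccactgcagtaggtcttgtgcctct
Ugt1a6a: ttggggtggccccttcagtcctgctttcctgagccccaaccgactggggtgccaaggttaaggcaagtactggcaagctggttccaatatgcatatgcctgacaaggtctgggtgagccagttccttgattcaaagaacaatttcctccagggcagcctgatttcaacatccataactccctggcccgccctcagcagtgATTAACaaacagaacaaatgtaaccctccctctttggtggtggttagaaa
Ugt2a3: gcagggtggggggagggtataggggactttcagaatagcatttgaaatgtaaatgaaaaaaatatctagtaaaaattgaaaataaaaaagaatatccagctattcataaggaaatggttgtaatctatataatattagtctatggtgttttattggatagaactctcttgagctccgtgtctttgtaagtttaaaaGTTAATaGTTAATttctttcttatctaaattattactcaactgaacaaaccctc
Ugt2b36: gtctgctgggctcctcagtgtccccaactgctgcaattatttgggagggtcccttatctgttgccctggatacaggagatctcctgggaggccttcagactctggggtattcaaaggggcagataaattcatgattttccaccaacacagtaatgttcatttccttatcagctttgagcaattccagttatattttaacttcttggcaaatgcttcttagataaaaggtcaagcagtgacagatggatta
Ugt1a10 held the arm at -100 and -71, Ugt1a6a at -50 and Ugt2a3 at -54 and -47, and the Ugt2b36 window held none. Of all 32851 windows, 6.43% held it, and of the 54 member windows 7 did (13.0%), from the genes Gsta3, Sult1a1, Sult1d1, Ugt1a10, Ugt1a6a, Ugt2a3 and Ugt3a1. Among these, Gsta3 was highest in gastric cells and Ugt3a1 was at background. The other Ugt genes called lower in gastric than duodenal cells, Ugt1a2, Ugt2a1, Ugt2b34 and Ugt2b35, were not among those holding the arm. The antioxidant response element core TGACNNNGC was in 3 member windows (5.56%), those of Gsta3, Gstm5 and Mgst1, against 10.2% of all windows.

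Sulfotransferases are cytosolic enzymes that move sulfate from the donor PAPS onto phenols, steroids and amines. The largest difference of all 48 members was that of Sult1c2 between gastric and duodenal cells and that of Sult1a1 in both comparisons with colonic cells. Gastric cells were higher than duodenal cells for 2 of the 10 rows and lower for 3 (20% and 30.0%, near the 22.7% and 23.9% of all rows). They were higher than colonic cells for 2 and lower for 4 (20% and 40%, against 20.2% and 23.9%). Duodenal cells were higher than colonic cells for 3 and lower for 3 (30.0% each, against 16.0% and 18.2%). Sult1a1, the main phenol sulfotransferase, read 6.78, 6.91 and 6.83 in gastric arrays, 6.81, 6.67 and 6.68 in duodenal arrays, and 11.62 and 11.47 in colonic arrays. The colonic arrays stood far above the other 6, which lay around the background reference. Gastric cells were 26.1-fold below colonic cells (log2 difference -4.70, SE 0.064, adjusted p = 6.39e-17), a ratio that is uncertain because the gastric mean of 6.84 was close to background. Duodenal cells were at background and at least 26.6-fold below colonic cells (adjusted p = 1.25e-16). Gastric and duodenal cells were not called different (log2 difference 0.12, adjusted p = 0.0937).

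Sult1c2 marked the stomach. It read 12.13, 12.16 and 12.13 in gastric arrays, 8.44, 8.47 and 8.33 in duodenal arrays, and 9.08 and 9.01 in colonic arrays. The gastric arrays lay above all others, and the duodenal arrays lay below the colonic ones. Gastric cells were 13.2-fold above duodenal (log2 difference 3.73, SE 0.049, adjusted p = 5.55e-17) and 8.56-fold above colonic cells (adjusted p = 1.3e-15), and duodenal cells were 1.55-fold below colonic cells (adjusted p = 3.04e-07). Its relative Sult1c1 was at background in all segments, though called lower in gastric and in duodenal than colonic cells (adjusted p = 0.017 and 0.00879). The gastric against colonic call of Sult1c1 was lost without gastric replicate 1 or 2 or either colonic replicate, and the duodenal against colonic call without colonic replicate 1. Sult4a1, a brain-type member without a known substrate, was above background in gastric cells alone (7.40 ± 0.040, SD, n = 3). It was at least 1.47-fold higher in gastric than duodenal cells (adjusted p = 2.81e-07) and at least 1.5-fold higher than in colonic cells (adjusted p = 3.75e-07).

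The windows before the starts of Sult1a1 and Sult1c2 are shown because these genes differed in opposite directions between gastric and colonic cells. Both were lower in duodenal than colonic cells. The windows are chr7:126676419-126676668 for Sult1a1 and chr17:53845959-53846208 for Sult1c2, both on the minus strand. Capitals again mark GTTAAT.
Sult1a1: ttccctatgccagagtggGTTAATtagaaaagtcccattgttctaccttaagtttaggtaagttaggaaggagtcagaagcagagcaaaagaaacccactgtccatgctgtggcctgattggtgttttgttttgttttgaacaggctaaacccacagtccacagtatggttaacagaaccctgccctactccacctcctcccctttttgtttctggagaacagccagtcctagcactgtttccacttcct
Sult1c2: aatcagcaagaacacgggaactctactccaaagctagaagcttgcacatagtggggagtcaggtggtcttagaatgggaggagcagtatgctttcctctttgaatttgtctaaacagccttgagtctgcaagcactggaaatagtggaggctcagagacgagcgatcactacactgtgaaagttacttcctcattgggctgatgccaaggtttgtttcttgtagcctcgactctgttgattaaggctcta
The Sult1a1 window held the arm at -232, and the Sult1c2 window held none of the 3 motifs searched.

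The duodenum had the highest levels of Sult2b1 and Sult1d1. Sult2b1, which sulfates cholesterol and pregnenolone, read 8.13, 8.19 and 8.23 in gastric arrays, 9.38, 9.37 and 9.39 in duodenal arrays, and 8.42 and 8.36 in colonic arrays. Gastric cells were 2.29-fold below duodenal cells (adjusted p = 9.88e-12) and duodenal cells were 1.98-fold above colonic cells (adjusted p = 8.94e-10). Gastric cells were 1.15-fold below colonic cells (adjusted p = 0.00412), and without colonic replicate 1 that call was lost (adjusted p = 0.0544). Sult1d1, which in mouse acts on catecholamines, averaged 8.85 ± 0.021 in gastric, 9.79 ± 0.047 in duodenal (SD, n = 3 each) and 9.22 ± 0.12 in colonic cells (SD, n = 2). It was 1.92-fold lower in gastric than duodenal cells and 1.48-fold higher in duodenal than colonic cells (adjusted p = 6.85e-10 and 1.76e-06). Sult1b1, which acts on thyroid hormone, barely passed background in the duodenum (6.88 ± 0.098, SD, n = 3), and its duodenal against colonic call (adjusted p = 0.0335) did not survive leaving out duodenal replicate 1 or 2 or either colonic replicate. Sult1e1, Sult3a1 and Sult5a1 were at background in all segments.

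Markers of other cell types also differed between segments. Of 10 enterocyte markers, 8 had lower levels in gastric than duodenal cells, and 8 had higher levels in duodenal than colonic cells, beside the members above with that profile. In gastric against colonic cells, 4 of the 10 markers were higher and 3 lower. Gastric surface and neck mucous markers summed to 151135 to 153136 in gastric, 8051 to 8108 in duodenal and 813 to 848 in colonic arrays, where 5 of 7 were at background (Muc5ac, Muc6, Gkn1, Gkn2 and Gkn3). Chief and parietal markers summed to 73919 to 74946 in gastric, 1994 to 2021 in duodenal and 1231 to 1235 in colonic arrays, beside the high gastric Sult1c2, Gstm2 and Gstz1. Pgc alone made 54.6% of the gastric sum, and 4 of the 8 rows were at background in duodenal and 5 in colonic arrays. In gastric against colonic cells, 6 rows were higher and 2 lower, and both lower rows were of Bhlha15. Colonocyte markers summed to 4834 to 4964 in gastric, 28506 to 29171 in duodenal and 40069 to 41721 in colonic arrays beside the colonic Sult1a1, with Slc37a2 at background in every segment. Guca2a alone made 62.7% of that sum in gastric, 89.8% in duodenal and 80.1% in colonic arrays. Of the 10 colonocyte markers, 7 were lower in duodenal than colonic cells, among them Sycn by 8.17-fold, Cyp2c55 by 7.89-fold and Guca2a by 1.27-fold, genes named after their values were seen.

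Tuft cell markers summed to 3173 to 3328 in gastric, 3343 to 3447 in duodenal and 1117 to 1134 in colonic arrays, beside the low colonic Gstt1 and Gsta4. Of the 10 tuft markers, 7 were higher and 0 lower in gastric than colonic cells and likewise in duodenal than colonic cells, and 7 were at background in colonic arrays. At an unadjusted limma p under 0.05, 0 were lower in gastric than colonic and 0 in duodenal than colonic cells. In gastric against duodenal cells, 2 of the 10 tuft markers were higher and 6 lower. Alox5ap and Hpgds of this list were also counted in the list around glutathione use, although Alox5ap is not itself an enzyme that uses it. Goblet cell markers summed to 55631 to 58429 in gastric, 76682 to 77559 in duodenal and 100653 to 101003 in colonic arrays, with Clca1 and Atoh1 at background throughout. Retnlb alone made 35.2% of the colonic sum and was 59-fold lower in duodenal than colonic cells. Of the 7 goblet markers, 1, Tff3, was higher and 3 were lower in duodenal than colonic cells. Crypt stem and proliferation markers summed to 2739 to 2849 in gastric, 5625 to 5656 in duodenal and 4261 to 4455 in colonic arrays. Olfm4 alone made 56.9% of the duodenal sum. Of these 7 markers, 2 were higher and 3 lower in duodenal than colonic cells. Paneth cell markers summed to 16082 to 16641 in gastric, 82993 to 85894 in duodenal and 76402 to 78543 in colonic arrays. Leukocyte markers summed to 1296 to 1343 in gastric, 2490 to 2514 in duodenal and 8682 to 8880 in colonic arrays, but Cd74 alone made 91.0% of the colonic sum and 7 of the 9 markers were at background there. Of those 9, 6 were higher and 1, Cd74, was lower in duodenal than colonic cells. Of 8 stromal and endothelial markers, 6 were at background in gastric, 6 in duodenal and 7 in colonic arrays. The part of these cells in the levels of the conjugating enzymes was not tested.

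Genes listed around the making, supply and use of glutathione were next compared. Of 20 measured genes of glutathione synthesis and recycling, gastric cells were lower than duodenal cells for 11 and higher for 3 (55.0% and 15.0%, against 23.9% and 22.7% of all rows). They were lower than colonic cells for 10 and higher for 4 (50% and 20%, against 23.9% and 20.2%), while duodenal against colonic cells gave 7 higher and 6 lower (35.0% and 30.0%, against 16.0% and 18.2%). This list is not limited to synthesis, since it also holds G6pdx, Pgd, Tkt, Taldo1 and Idh1. Its synthesis genes, named after their values were seen, did not share a direction. Gclm averaged 10.03 in gastric and 9.49 in duodenal cells, Gclc 7.37 and 7.38, and Gss 7.87 and 8.43. Dpep1, a dipeptidase that splits cysteinylglycine, was at background in gastric cells and at least 7.37-fold below duodenal and at least 9.77-fold below colonic cells (adjusted p = 1.04e-14 and 1.11e-14). Ggt1, which removes the glutamyl group of glutathione, was at least 3.38-fold lower in gastric than duodenal cells and 3.21-fold higher in duodenal than colonic cells. Of 21 other genes listed around glutathione use, 13 were lower and 4 higher in gastric than duodenal cells (61.9% and 19.0%, against 23.9% and 22.7% of all rows). Gpx3, a secreted glutathione peroxidase, read 12.49 in gastric, 10.52 in duodenal and 6.86 in colonic cells on average. It was 3.92-fold higher in gastric than duodenal cells (adjusted p = 1.53e-13) and 49.5-fold higher in gastric than colonic cells (adjusted p = 4.91e-18), a ratio that is uncertain because the colonic mean was close to background.

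Genes listed around the other donors were called in both directions. These lists are not limited to donor supply, since the first holds Ugt8a and the second holds Tpst1, Ethe1, Sqor and Tst. Of 11 genes around UDP-glucuronic acid, 4 were higher and 3 lower in gastric than duodenal cells (36.4% and 27.3%, against 22.7% and 23.9% of all rows). Ugdh, the enzyme that makes the donor, was at background in all segments, and is named after its values were seen. Of 20 genes of sulfate activation and removal, 9 were higher and 9 lower in gastric than duodenal cells (45.0% each, against the same 22.7% and 23.9%). In gastric against colonic cells, 6 were higher and 11 lower (30.0% and 55.0%, against 20.2% and 23.9%). Papss2, which makes the sulfate donor, was 3.28-fold lower in gastric than duodenal cells (7.71 ± 0.06 against 9.42 ± 0.024, SD, n = 3 each, adjusted p = 1.57e-13). Papss1 of the same list, named after its values were seen, had the opposite order of these segments. It averaged 11.00 ± 0.035 in gastric, 10.79 ± 0.04 in duodenal (SD, n = 3 each) and 11.25 ± 0.047 in colonic cells (SD, n = 2). The anion exchanger gene Slc26a6 was 7.89-fold lower in gastric than duodenal cells, and the tyrosylprotein sulfotransferase gene Tpst1 was 5.31-fold higher (adjusted p = 2.8e-14 and 8.92e-15). Ethe1, Sqor and Tst, which oxidize or detoxify sulfide, were highest in the colon. Ethe1 was 6.9-fold lower in gastric than colonic and 5.08-fold lower in duodenal than colonic cells (adjusted p = 2.06e-14 and 3.59e-13).

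**Figure D4:**
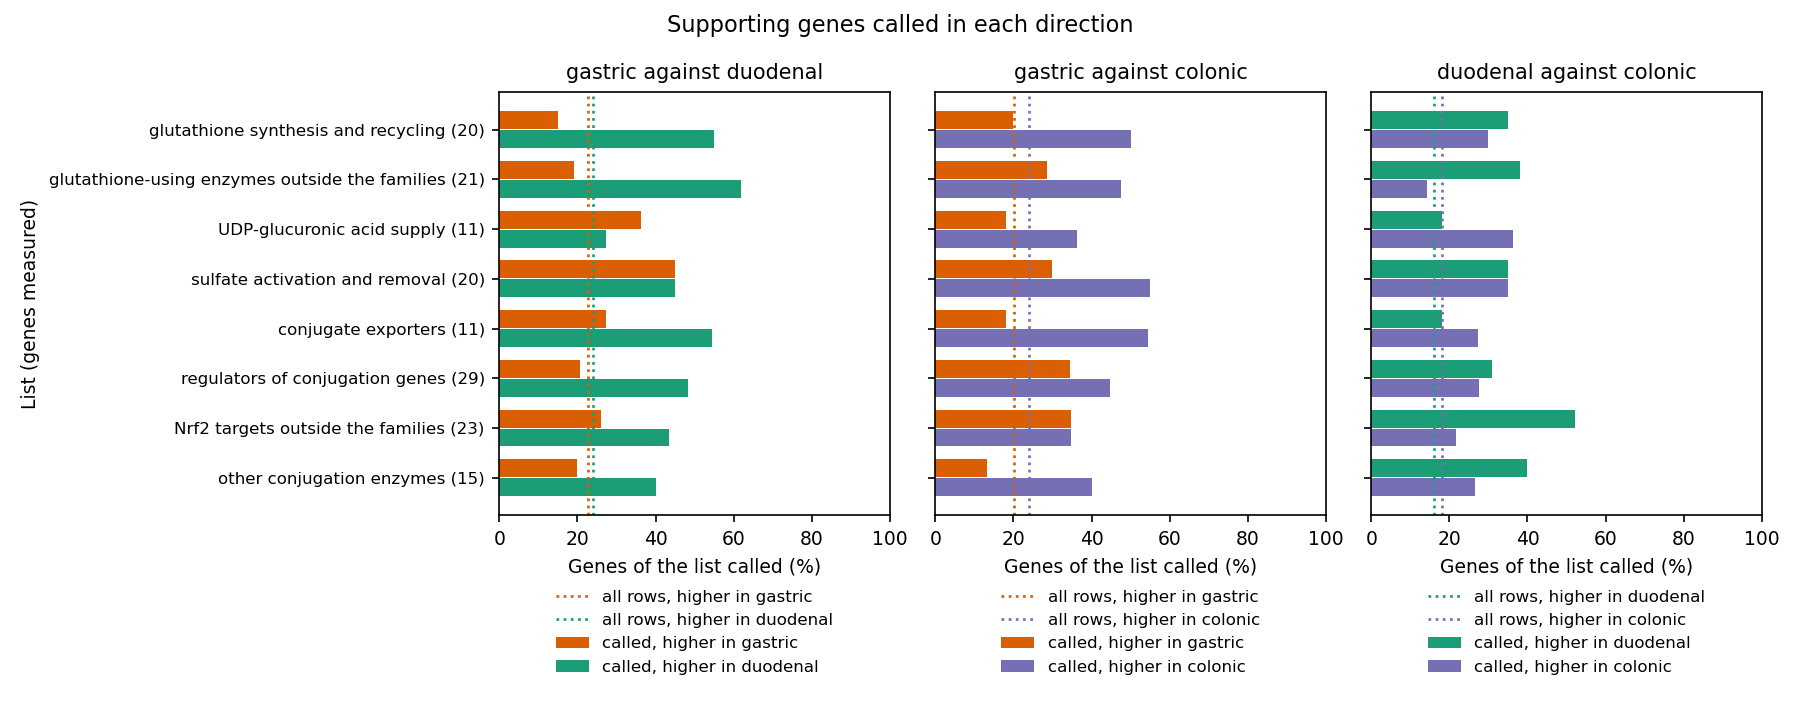
Share of the measured genes of each supporting list (number measured in brackets) that were called in each direction, in 3 panels, 1 per comparison, with dotted lines at the share of all rows. Bars for higher levels in duodenal cells exceed those for gastric cells in 6 of the 8 lists of the gastric against duodenal panel. The lists labelled as glutathione-using and other conjugation enzymes also hold some genes of other kinds.

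Exporters and regulators of these pathways also differed. The bile acid and conjugate exporter subunits Slc51a and Slc51b, listed in the files as OSTA and OSTB, were 21.7-fold and at least 8.83-fold lower in gastric than duodenal cells (adjusted p = 1.4e-16 and 4.69e-16). Abcc2, which pumps glucuronides and glutathione conjugates across the apical membrane, was above background in duodenal cells alone, where it was at least 2-fold above both other segments. Among 29 regulators, 14 were lower and 6 higher in gastric than duodenal cells (48.3% and 20.7%, against 23.9% and 22.7% of all rows). Cdx1 and Cdx2 had the largest differences of this list in both comparisons with gastric cells. Cdx1 averaged 7.9 in gastric, 10.7 in duodenal and 11.8 in colonic cells, and Cdx2 averaged 8.0, 10.6 and 11.8. Nr1h4 had the same order, at 8.1, 10.0 and 11.3. Nr1i3, the nuclear receptor CAR, averaged 6.66 ± 0.048 in gastric, 8.64 ± 0.038 in duodenal (SD, n = 3 each) and 6.84 ± 0.042 in colonic cells (SD, n = 2), and was at least 3.54-fold lower in gastric than duodenal cells (adjusted p = 3.32e-14). Chosen after their values were seen, Nr1i2, the receptor PXR, was 2.41-fold lower in gastric than duodenal cells (adjusted p = 2.83e-12) and was not called between duodenal and colonic cells (adjusted p = 0.852), and Ahr was at background in all segments. Targets of Nrf2 outside the 3 families showed 6 higher and 10 lower of 23 in gastric than duodenal cells (26.1% and 43.5%, against 22.7% and 23.9% of all rows). In duodenal against colonic cells, 12 were higher and 5 lower (52.2% and 21.7%, against 16.0% and 18.2%). Nfe2l2 itself, named after its values were seen, was 1.26-fold higher in duodenal than colonic cells (adjusted p = 0.00124).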

How the data were processed

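The authors deposited a table of log2 values for 8 Illumina bead arrays with upper-case gene symbols as rows. GenomeStudio, lumi and limma are named, without versions or roles, per the submitters' processing notes. The base of the logarithm is unstated and 2 was assumed, since values run between 6.22 and 15.49. Sorted columns agreed within 0.0043, as after quantile normalization. Nothing says how probes were joined into rows. There were no detection p-values. The number of arrays, 2 in the colon, limits the precision.

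A linear model with a mean per segment was fitted to all 8 arrays and 18131 rows with limma 3.58.1 in R 4.3.3, with empirical Bayes moderation and a Benjamini-Hochberg threshold of 0.05, and tested on simulated data. Where 1 group's mean was under 6.81, a ratio is the bright group's mean over the mean of the higher of 6.81 and each dim array's value, given as at least N-fold. Both means under 6.81 give no ratio. Symbols, gene order and promoter windows came from RefSeq on GRCm38.p6. No build is named for the array annotation. Gsta1 and Gsta2 windows were aligned with Biopython 1.88.

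Members given in full were, per comparison and family, the called rows with the largest differences, up to 4 per direction, without overlap of arrays and above background. Other members are named to account for the family. Supporting genes were up to 3 per list and comparison. Members, lists and motifs were chosen with earlier results of these data known. The number of columns left unused was 0. The fit was repeated after a second quantile normalization or centring on medians, without dim rows, with a trended robust variance, within the compared segments alone, with weights per array, with replicate number as block and without each array. Members were also counted past 2-fold and over current symbols.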

Additional observations from a re-analysis of the deposited data

How the results depend on the processing

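Counting only changes of at least 2-fold left 11 members called in gastric against duodenal cells (3 higher, 8 lower), 13 in gastric against colonic cells (9 higher, 4 lower) and 9 in duodenal against colonic cells (8 higher, 1 lower). Over the fits that each left out 1 array, called members ranged from 32 to 35, from 28 to 33 and from 27 to 30 in these comparisons. Higher members ranged from 9 to 10, 13 to 14 and 19 to 22, and lower members from 23 to 26, 15 to 19 and 7 to 8. Called supporting genes ranged from 101 to 106, 89 to 101 and 79 to 86, and called rows of the whole table from 7915 to 8433, 7134 to 8160 and 5078 to 6136. No member call turned its sign under any alternative run. Deviations from the group means correlated at -0.014 to 0.013 between same-numbered arrays. These values cover all rows, many of them at background, and cannot tell whether same-numbered arrays share an animal. The labels do not state it. With the replicate block, the members called were 34, 33 and 29, with Ugt3a2 gained in gastric against colonic and Gsto2 lost in duodenal against colonic cells. With the 99th percentile of the olfactory receptor rows as background, a choice made after seeing the data, 33 members were above it, without Sult1b1 and Ugt1a2. Calls near background (Sult1a1 in gastric cells, Sult1b1, Ugt1a2, Gsto2) are limited by the lack of detection values, and the colonic values by 2 arrays.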

Other observations

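A list of other conjugating enzymes was also compared. It is not limited to such enzymes, since it also holds Ephx1, Ephx2, Hsd11b2, Tst and Mpst. Of its 15 measured genes, 6 were lower and 3 higher in gastric than duodenal cells (40% and 20%, against 23.9% and 22.7% of all rows). Nat8, listed in the files as CML4, acetylates cysteine conjugates, the last step from glutathione conjugates to mercapturic acids. It averaged 7.00 in gastric, 10.33 in duodenal and 7.11 in colonic cells, and was 10.1-fold lower in gastric than duodenal cells and 9.3-fold higher in duodenal than colonic cells (limma adjusted p = 2.55e-16 and 2.59e-15). Ephx2, the soluble epoxide hydrolase, was 4.87-fold lower in gastric than duodenal cells and 5.23-fold higher in duodenal than colonic cells (limma adjusted p = 1.53e-13 and 9.64e-13). Hsd11b2, which inactivates glucocorticoids, was at background in gastric cells and at least 10.4-fold lower there than in colonic cells, and 8.44-fold lower in duodenal than colonic cells (limma adjusted p = 4.92e-15 and 4.12e-14).

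Aldh3a1, an aldehyde dehydrogenase known as an Nrf2 target, was above background in gastric cells alone, at least 5.03-fold above both other segments (limma adjusted p = 1.23e-15 and 6.28e-15). Aldh1a1, which oxidizes retinal, was 3.22-fold lower in gastric than duodenal cells and 2.23-fold higher in duodenal than colonic cells. Ugt8a, a relative of the UDP-glucuronosyltransferases that transfers galactose to ceramide, was 5.36-fold higher in gastric than duodenal and 5.04-fold higher in gastric than colonic cells (limma adjusted p = 2.53e-15 and 1.58e-14).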
